A study of Homo sapiens with 10 samples.

Results

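The 10 circadian clock genes described here are PER1, PER2, PER3, CRY1, CRY2, CLOCK, ARNTL (also named BMAL1), NR1D1, NR1D2 and DBP, taken by symbol from the gene rows of a count table of HAP1 RNA. They are 10 of 58051 gene rows, and all 10 passed the filter on low counts. HAP1 cells are near-haploid and descend from the human leukaemia line KBM-7. Libraries came from 2 RBM4 knockout clones (clone 1, n = 3; clone 2, n = 2) and from wild type HAP1 cells (n = 3), sequenced paired-end; a further RBM4 knockout library and a further wild type library were sequenced single-end, without replicates. Each clone is a single line, cells of every group were grown in IMDM with fetal calf serum, and the labels name no synchronising treatment and no hour of harvest. The labels do not say how RBM4 was knocked out or which clone gave the single-end library. They do not state that replicates were separate cultures, and the p-values cover the spread between these libraries, which may be technical.

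The clock is a feedback loop of transcription. CLOCK and ARNTL pair up and bind E-box elements in the promoters of the PER, CRY, NR1D and DBP genes, and the PER and CRY proteins then hold that pair back. A second loop runs through ARNTL itself, whose promoter is repressed by the nuclear receptors NR1D1 and NR1D2 (REV-ERB alpha and beta) and activated by the ROR receptors at the same response element. DBP carries the rhythm to output genes through D-box elements. RBM4, an RNA-binding protein of splicing and translation, has been linked to this loop in the mouse, where it was reported to promote translation of Per1 messenger RNA; RNA counts do not measure translation. Cells in an unsynchronised dish run out of phase, so a bulk level averages over the cycle, and fewer cells expressing a gene and less RNA per cell cannot be told apart.

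The paired-end libraries held between 33192095 and 55617525 counts each. RBM4 RNA stood at 22.3, 22.9 and 24.5 CPM for clone 1 and 25.3 and 25.8 CPM for clone 2, against 79.9, 79.8 and 78.7 CPM in wild type (CPM, counts scaled to the library size with TMM factors). BCR and ABL1, fused in this line, were detected throughout, with a summed level of 36.3 to 38.3 CPM in clone 1, 38.0 to 39.8 CPM in clone 2 and 29.9 to 34.3 CPM in wild type. Of 7 haematopoietic markers, 6 were below 0.2 CPM in every group and TAL1 carried the sum (47.0 to 48.6 CPM in clone 1, 44.6 to 45.4 CPM in clone 2, 44.3 to 45.7 CPM in wild type). Of 4 fibroblast markers, COL1A2, DCN and LUM had no counts and COL1A1 stood at 18.5 to 22.2 CPM in clone 1, 26.0 to 26.5 CPM in clone 2 and 13.2 to 13.9 CPM in wild type; the part of these markers in the results was not tested.

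Strings that match the response elements of the loop occur in promoter windows of the members other than DBP. These 30-base stretches come from RefSeq promoter windows on GRCh38.p14, 250 bases before to 50 bases after each annotated start. They are shown because they hold the letters of such elements. Capitals mark the element: an E-box (CACGTG), its variant the E′-box (CACGTT, or AACGTG on the other strand), a D-box (TTATGTAA or TTACGTAA) or the ROR and REV-ERB core site (TAGGTCA or TGGGTCA).
PER1 E-box, chr17:8152560-8152589, minus strand: agcacccaggtcCACGTGcgcccgtgtgtg
PER2 E′-box, chr2:238288790-238288819, minus strand: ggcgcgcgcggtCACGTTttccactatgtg
PER2 D-box, chr2:238288595-238288624, minus strand: cccgctgcggcTTACGTAAccgccgccggc
CRY1 E′-box, chr12:107093621-107093650, minus strand: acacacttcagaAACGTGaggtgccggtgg
NR1D1 E′-box, chr17:40100740-40100769, minus strand: gcgcaagagctcAACGTGccggctgttgga
NR1D2 E-box and core site on the other strand, chr3:23945966-23945995, plus strand: CACGTGaggccgctcggctcccTGACCCAc
ARNTL core site, chr11:13277809-13277838, plus strand: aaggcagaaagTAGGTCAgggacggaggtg
Both strands were searched in the windows of 27305 genes, and overlaps between motifs were allowed. CACGTG was found in 2 of 10 members (PER1 and NR1D2) and in 8.77% of all genes, and CACGTT in 5 members (PER2, CRY1, CRY2, CLOCK and NR1D1) and in 6.44% of all genes. The D-box was found in 3 members (PER2, PER3 and NR1D2) and 1.27% of all genes, and the core site in 4 members (ARNTL, CLOCK, CRY2 and NR1D2) and 6.94% of all genes. A cyclic AMP response element (TGACGTCA) was found in 0 members and 2.25% of all genes. DBP had no match to any of these strings. A match is a string of letters in this window, not a measured binding site.

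All 10 clock genes were expressed in HAP1 cells of every group, and their order by level was nearly the same in each. On a scale of TMM-scaled CPM per kilobase of exon (all transcripts joined), which allows genes to be compared, CRY1 was highest, at 7.78 ± 0.11 in clone 1, 7.53 ± 0.32 in clone 2 and 7.77 ± 0.33 in wild type (SD; n = 3, 2 and 3). CRY1 is the stronger repressor of the 2 cryptochromes in mammalian clocks. NR1D2 stood at 7.37 ± 0.49 in clone 1, 6.50 ± 0.20 in clone 2 and 7.72 ± 0.33 in wild type, and PER3 at 6.78 ± 0.42, 7.48 ± 0.42 and 7.68 ± 0.12 in the same groups, so that PER3 was above NR1D2 in clone 2. On this length the 3 genes did not differ beyond their spread in wild type. Scaled by the longest coding transcript they did in wild type, with CRY1 at 12.04 ± 0.51, PER3 at 9.85 ± 0.15 and NR1D2 at 8.54 ± 0.36. A middle tier held PER1, at 4.28 ± 0.34 in clone 1, 4.24 ± 0.12 in clone 2 and 4.17 ± 0.16 in wild type, and CLOCK, at 3.44 ± 0.44 in clone 1, 3.41 ± 0.31 in clone 2 and 3.80 ± 0.06 in wild type. PER2, CRY2 and NR1D1 came next, with means between 2.48 and 2.74 in clone 1 and clone 2 and between 2.17 and 2.65 in wild type. ARNTL and DBP were lowest: ARNTL had a mean of 1.65 in clone 1, 1.28 in clone 2 and 1.67 in wild type, and DBP had 1.82 in clone 1, 1.82 in clone 2 and 1.55 in wild type. The low place of both rests on the length used, since GENCODE 29 gives DBP 6544 bases of exon over all transcripts but 2229 in the longest coding one, and ARNTL 6726 against 2788. Scaled by the longest coding transcript, DBP ranked 5 of 10 in each group, ARNTL ranked 6 in clone 1, 8 in clone 2 and 7 in wild type, and NR1D1 and PER2 were the lowest pair.

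**Figure D1:**
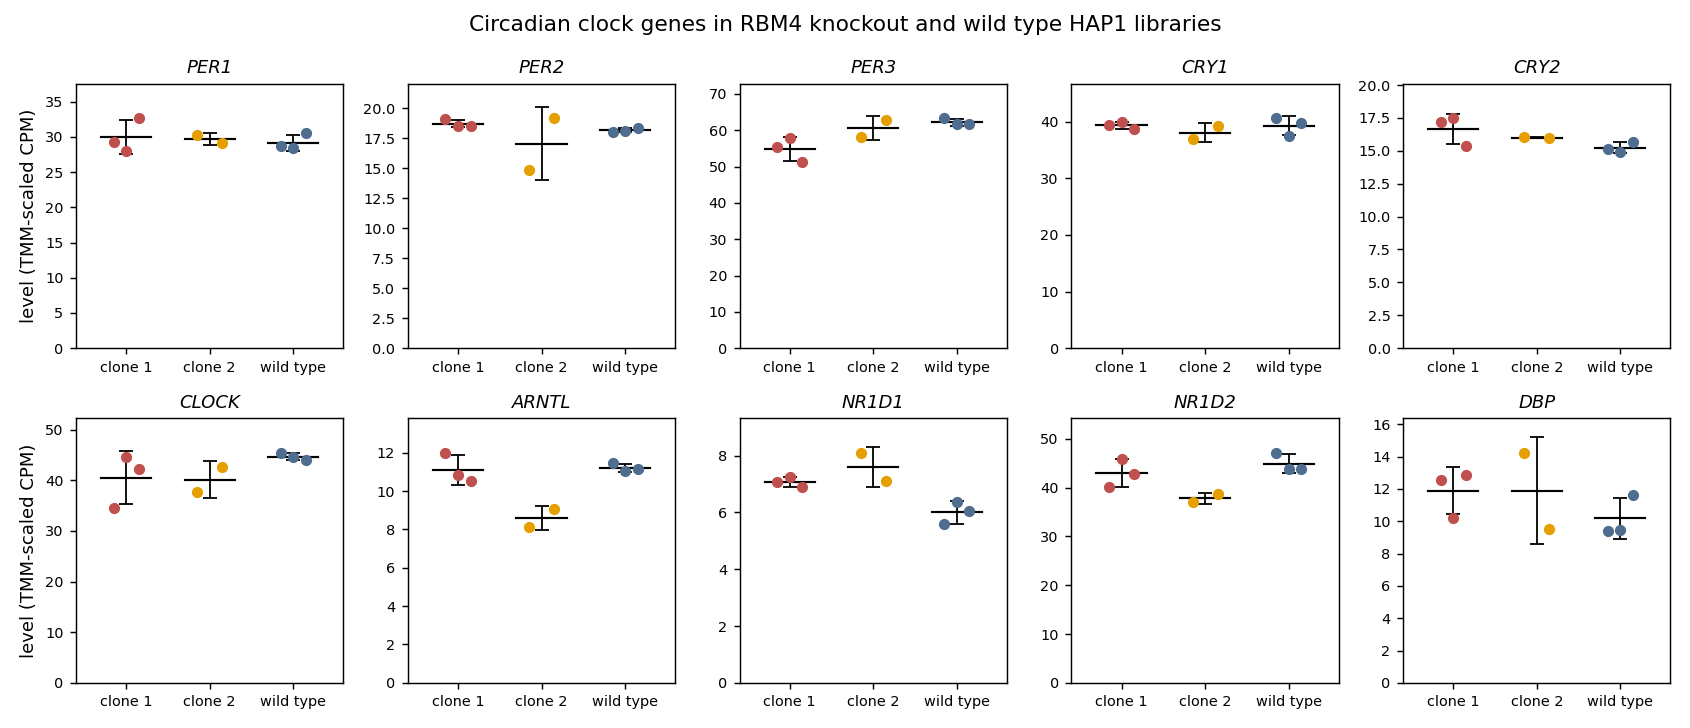
TMM-scaled CPM (y axis, from 0) of the 10 clock genes in clone 1, clone 2 and wild type; points are libraries, horizontal lines are group means and bars are 1 SD. NR1D1 is the gene whose knockout libraries (6.89 to 8.10 CPM) all lie above its wild type libraries (5.58 to 6.36 CPM), and ARNTL and NR1D2 are lower in clone 2.

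In the mean over both clones, called the clone mean from here on, the estimates of all 10 clock genes were at most 1.22-fold from wild type. Of the 10 members 1 was called, NR1D1, which rose, and 0 fell (edgeR's quasi-likelihood F test, Benjamini-Hochberg adjusted p below 0.05 over 20747 features). At an unadjusted p below 0.05 there were 1 up and 2 down, and DESeq2 called 0. The background in this comparison was 18% of all features called, 9.87% up and 8.09% down, so a share of 1 in 10 members is not a result about the clock genes. The median log2 fold change was -0.02 over the members and 0.00 over all features, and the median absolute log2 fold change 0.13 over the members and 0.15 over all features. The 95% intervals of the 10 log2 fold changes together ran from -0.37 to 0.53. Clone 1 had 0 of 10 members called against a background of 16% (1 up and 1 down at an unadjusted p below 0.05, and 0 by DESeq2). Clone 2 had 2 members called, both lower, against a background of 10.8% (4.59% for lower), and DESeq2 called 2 as well. No member was called the same way in both clones, where 7.51% of all features were, and 0 members were called between clone 2 and clone 1 (2.09% of all features; 1 up and 2 down at an unadjusted p below 0.05, and 0 by DESeq2). The clones share the wild type libraries, so their contrasts are not independent.

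**Figure D2:**
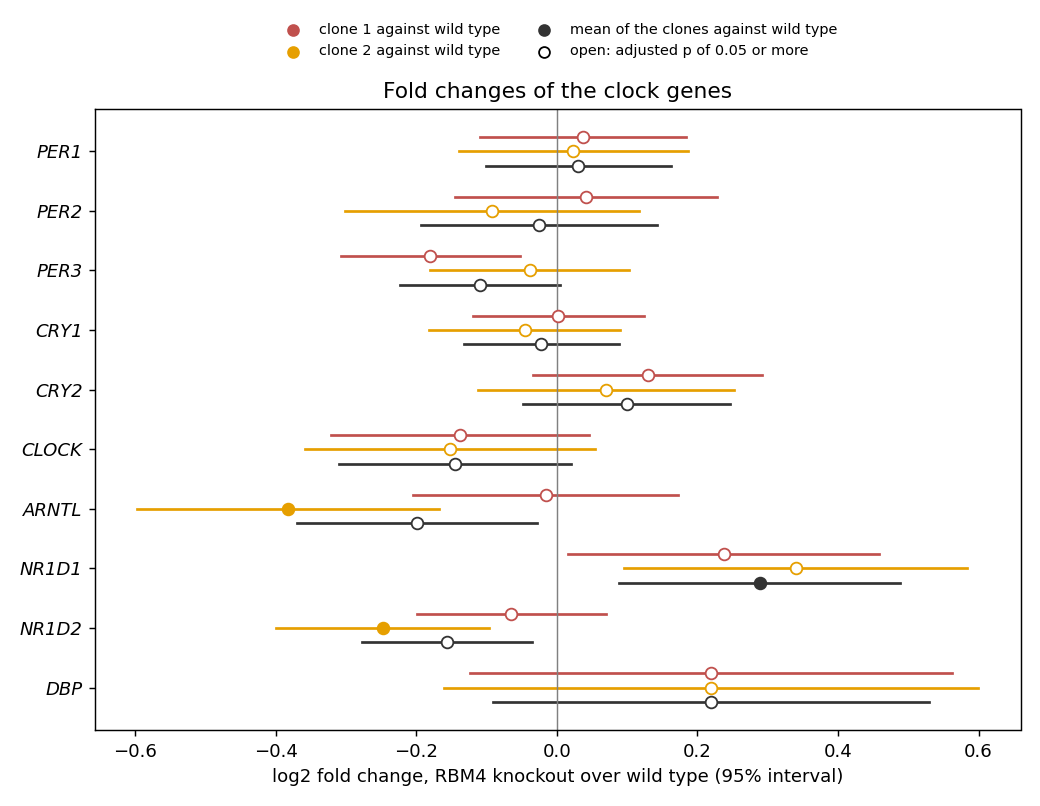
Log2 fold change of each clock gene (x axis), RBM4 knockout over wild type, for clone 1, clone 2 and the clone mean; points are estimates, lines are 95% intervals, and filled points have an adjusted p below 0.05. The filled points are ARNTL (-0.38) and NR1D2 (-0.25) in clone 2 and NR1D1 (0.29) in the clone mean.

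Of the pair of activators, ARNTL was lower in clone 2, by a margin that passed the test, and CLOCK was not called. ARNTL (ENSG00000133794, chromosome 11, 13276652 to 13387266, GRCh38) encodes the obligate partner of CLOCK. It stood at 11.99, 10.8 and 10.5 CPM for clone 1 and at 8.14 and 9.05 CPM in clone 2, against 11.4, 11.1 and 11.1 CPM in wild type. Both clone 2 libraries lay below every other paired-end library, and clone 1 overlapped wild type. The share of all features with a single clone apart was not counted, so such separations, here and for genes below, are description only. In clone 2 ARNTL fell 1.3-fold against wild type (log2 fold change -0.38 with an SE of 0.10, edgeR adjusted p = 0.0253), while in clone 1 the log2 fold change was -0.02 (95% interval -0.20 to 0.17, adjusted p = 0.923). The difference between clone 2 and clone 1, -0.37, did not pass the test (adjusted p = 0.101) and passed in 2 of 21 alternatives. The call in clone 2 was lost on leaving out clone 2 replicate 1 (adjusted p = 0.253) or any wild type replicate (0.0569 to 0.0939). In the single-end pair ARNTL had 354 counts (8.44 CPM) in the knockout library and 478 counts (11 CPM) in the wild type library, a log2 ratio of -0.38 (95% interval for counting error -0.58 to -0.18).

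CLOCK (ENSG00000134852, chromosome 4), its partner, stood at 34.6, 44.6 and 42.2 CPM for clone 1 and 37.6 and 42.7 CPM for clone 2, against 45.4, 44.6 and 44.0 CPM in wild type. The low libraries were the first replicate of each clone. Both clone 2 libraries lay below wild type, and clone 1 overlapped it. The log2 fold change in the clone mean was -0.14 (SE 0.08, adjusted p = 0.218). In the single-end pair it was at 36.7 CPM in the knockout library and 37.1 CPM in the wild type library.

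The genes of the REV-ERB receptors, which repress ARNTL, had fold changes of opposite sign. NR1D1 (ENSG00000126368, chromosome 17, 40092787 to 40100725) had 7.07, 7.24 and 6.89 CPM for clone 1 and 8.10 and 7.10 CPM for clone 2, against 5.58, 6.36 and 6.06 CPM in wild type. Every knockout library was above every wild type library, which held in one direction or the other for 25.3% of all features. NR1D1 rose 1.22-fold in the clone mean (log2 fold change 0.29 with an SE of 0.09, adjusted p = 0.0468). By clone, its log2 fold changes were 0.24 in clone 1 (adjusted p = 0.136) and 0.34 in clone 2 (adjusted p = 0.0747), and clone 2 differed from clone 1 by 0.10 (95% interval -0.14 to 0.34). This call was close to the threshold and held in 4 of 22 alternative analyses; leaving out any 1 library ended it (adjusted p 0.0502 to 0.235), with a log2 fold change between 0.23 and 0.33. In the single-end pair NR1D1 was at 11.2 CPM in the knockout library and 9.78 CPM in the wild type library (log2 ratio 0.19, interval -0.0023 to 0.38).

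NR1D2 (ENSG00000174738, chromosome 3, 23945260 to 23980618) stood at 40.1, 45.8 and 42.8 CPM for clone 1 and 37.0 and 38.6 CPM for clone 2, against 47.1, 43.8 and 43.8 CPM in wild type. Clone 2 lay below all other libraries and clone 1 overlapped wild type. NR1D2 fell 1.19-fold in clone 2 (log2 fold change -0.25 with an SE of 0.07, adjusted p = 0.0381), and the call was lost without either clone 2 replicate (0.0872 and 0.261) or any wild type replicate (0.0634 to 0.154). Its log2 fold change came to -0.06 in clone 1 (adjusted p = 0.519) and -0.16 in the clone mean (adjusted p = 0.0723), and clone 2 differed from clone 1 by -0.18 (adjusted p = 0.361). The single-end pair ran the other way, with 40.5 CPM in the knockout library and 35.5 CPM in the wild type library (log2 ratio 0.19, interval 0.09 to 0.29).

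The repressor genes of the main loop did not pass the test in the clone mean. PER1 (ENSG00000179094, chromosome 17), the member whose mouse counterpart was linked to RBM4, had 29.3, 28.0 and 32.7 CPM for clone 1 and 30.3 and 29.1 CPM for clone 2, against 28.7, 28.5 and 30.5 CPM in wild type. The groups overlapped, and the log2 fold change was 0.03 with a 95% interval of -0.10 to 0.16 (adjusted p = 0.780). PER2 (ENSG00000132326, chromosome 2), the second period protein, had 19.1, 18.6 and 18.6 CPM for clone 1 and 14.9 and 19.2 CPM for clone 2, against 18.1, 18.1 and 18.4 CPM in wild type. The clone 1 libraries all lay above wild type, and clone 2 overlapped it. Clone 2 replicate 1 was the single low library, and the log2 fold change was -0.03 (interval -0.19 to 0.14), or 0.05 without that library. PER3 (ENSG00000049246, chromosome 1), which is not needed for rhythm in mice, had 55.5, 57.9 and 51.3 CPM for clone 1 and 58.2 and 63.0 CPM for clone 2, against 63.4, 61.7 and 61.6 CPM in wild type. Its clone 1 libraries all lay below wild type, with a log2 fold change in clone 1 of -0.18 that missed the threshold (SE 0.06, adjusted p = 0.0543) and passed it in 7 of 21 alternatives; in the clone mean it was -0.11 (adjusted p = 0.179).

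CRY1 (ENSG00000008405, chromosome 12) had 39.5, 39.9 and 38.8 CPM for clone 1 and 37.0 and 39.3 CPM for clone 2, against 40.6, 37.5 and 39.8 CPM in wild type. The 3 groups overlapped, and the log2 fold change was -0.02 with an interval of -0.13 to 0.09. CRY2 (ENSG00000121671, chromosome 11) had 17.2, 17.5 and 15.3 CPM for clone 1 and 16.0 and 16.0 CPM for clone 2, against 15.1, 14.9 and 15.7 CPM in wild type, with a log2 fold change of 0.10 (interval -0.05 to 0.25, adjusted p = 0.350). Both clone 2 libraries lay above wild type, and clone 1 overlapped it. In the single-end pair the log2 ratios of PER1, PER2, PER3, CRY1 and CRY2 lay between -0.11 and 0.09.

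DBP (ENSG00000105516, chromosome 19), the D-box activator and in many tissues the clock gene of widest swing, had the largest SE of the members (0.14). It stood at 12.6, 10.2 and 12.9 CPM for clone 1 and 14.2 and 9.54 CPM for clone 2, against 9.43, 9.45 and 11.6 CPM in wild type. The groups overlapped, and the log2 fold change of 0.22 had an interval of -0.09 to 0.53 (adjusted p = 0.323). In the single-end pair its log2 ratio was 0.02.

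Some members share exon bases with a neighbour on the opposite strand. The library kit marks strand, but whether the counting used it is not stated in the labels. NR1D1 shares 263 of its 2772 exon bases with THRA, the thyroid hormone receptor alpha gene, whose log2 fold change was 0.05 (adjusted p = 0.683), and DBP shares 661 bases with SPHK2, a sphingosine kinase gene at 0.13 (adjusted p = 0.227). PER3 shares 868 bases with UTS2, which had at most 3 counts in any paired-end library, and CLOCK shares 76 bases with TMEM165 (-0.08, adjusted p = 0.308). PER1 shares 30 bases with ENSG00000263620 on its own strand, which was higher in the clone mean (log2 fold change 0.35, adjusted p = 0.0283), and its exons also cover MIR6883. PER2, PER3, CRY1 and CLOCK each share between 27 and 482 bases with an unnamed opposite-strand transcript. Reads from bases shared with an opposite-strand gene cannot be told apart without strand. The paired-end and single-end tables differed at some such genes. UTS2 had 319 counts in the single-end knockout library and 314 in the single-end wild type library. ENSG00000225057, opposite PER2, had 21 and 22 counts in the same 2 libraries, against sums of 1 in clone 1, 2 in clone 2 and 3 in paired-end wild type. ENSG00000257548, opposite CRY1, had 14 and 19 counts in that pair, against sums of 0, 0 and 1 in the 3 paired-end groups. UTS2, ENSG00000225057 and ENSG00000257548 were thus near 0 in the paired-end libraries beside well-counted members, and were counted in the single-end pair. Other opposite-strand genes did not show this. ENSG00000236266, opposite PER3, averaged 1.90 CPM in clone 1, 2.41 in clone 2 and 1.99 in wild type. In the single-end pair it was at 1.67 CPM (knockout) and 1.59 CPM (wild type). ENSG00000272969, opposite CLOCK, averaged 0.14 CPM in each paired-end group, against 0.19 and 0.14 CPM in that pair. The part of reads from the other strand in the single-end values of PER3, NR1D1 and DBP was not tested.

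GC content moved with the direction of the members. The 4 members with the highest GC in their transcripts (PER1 62.6%, DBP 60.8%, NR1D1 59.5% and CRY2 57.4%) had a log2 fold change above 0 in the clone mean. The 6 others, from PER2 at 53.2% through ARNTL at 46.0% to NR1D2 at 40.6% and CLOCK at 39.6%, had one below 0. Across genes, the Spearman correlation of a library's level with GC was 0.28, -0.01 and 0.40 in clone 1 and 0.35 and -0.05 in clone 2, against -0.43, -0.36 and -0.25 in wild type, so the knockout libraries lay above the wild type ones on this measure as well. With an offset for each library's GC trend, NR1D1 came to 0.14 (adjusted p = 0.311) and NR1D2 in clone 2 to -0.12 (adjusted p = 0.20), and both lost their calls. ARNTL in clone 2 kept its value and its call (-0.36, adjusted p = 0.0210). PER1 turned to -0.12 (adjusted p = 0.0864), CRY1 to 0.06 and CRY2 to -0.03, and CLOCK came to 0.00.

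**Figure D3:**
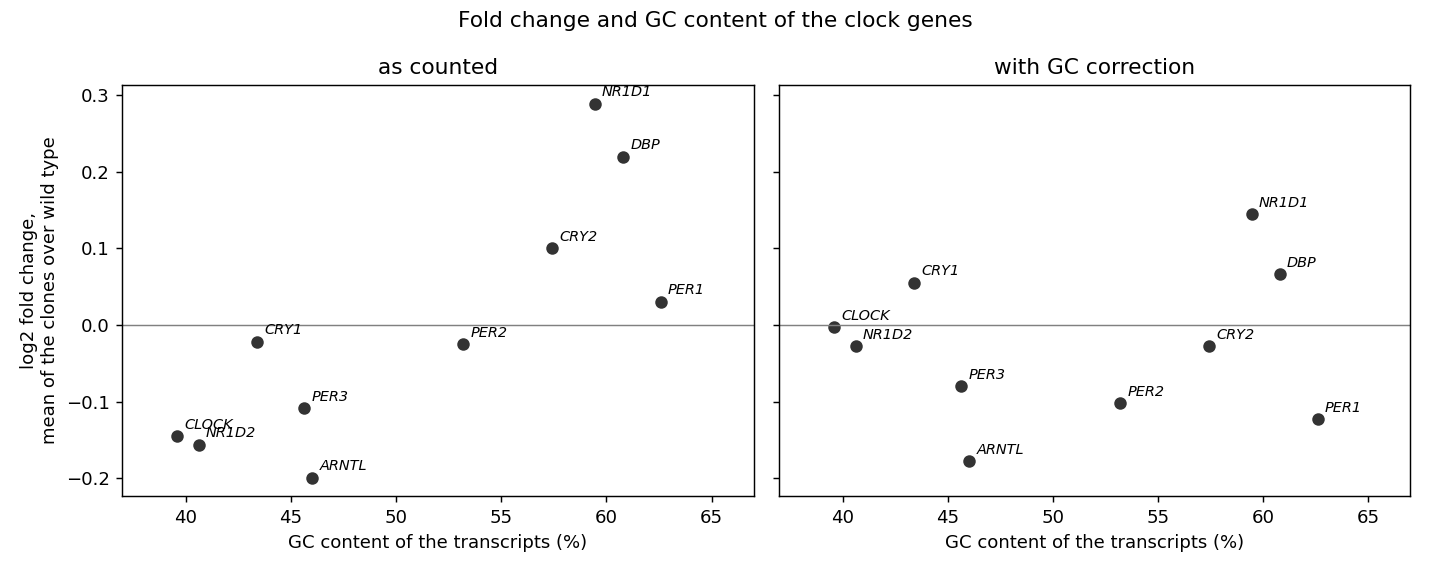
Log2 fold change of the 10 clock genes in the clone mean over wild type (y axis) against the GC content of their transcripts in percent (x axis), as counted on the left and with a GC offset per library on the right; each point is a gene. The 4 genes above 57% GC lie above 0 on the left; on the right NR1D1 is at 0.14, and PER1 and CRY2 lie below 0.

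The libraries also carry sample numbers. All wild type libraries and the first replicate of each clone have numbers 1 to 5, and the other knockout libraries 11 to 13; what the numbers mark is not stated. Within numbers 1 to 5 alone there is 1 library per clone (clone 1 n = 1, clone 2 n = 1, wild type n = 3). The spread of the clones is not measured there, so only values are given. In the clone mean, those furthest from 0 were DBP at 0.39, NR1D1 at 0.33, CLOCK at -0.31 and NR1D2 at -0.23. In clone 2 they were ARNTL at -0.47, DBP at 0.47, NR1D1 at 0.42, PER2 at -0.30, NR1D2 at -0.29 and CLOCK at -0.26. In clone 1, CLOCK was furthest from 0, at -0.37. With the number block as a term over all 8 libraries, CLOCK (-0.31), NR1D2 (-0.22) and NR1D1 (0.34) were called in the clone mean. That is 3 of 10 members, where 4086 of 20747 features were called. The second block holds no wild type library, so it gives no value of its own. With the block term, the clone mean against wild type therefore rests on the 1 first-block library of each clone. Its values were near those within numbers 1 to 5, and its calls are not separate evidence. CLOCK and NR1D2 are the members of lowest GC, and the GC measure of the first knockout replicates (0.28 and 0.35) was higher than that of the second ones (-0.01 and -0.05), while the third replicate of clone 1 was at 0.40.

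Beyond the 10 members, 42 other genes of the clock were listed by role, and 39 of them were tested. In the clone mean 2 rose and 6 fell, against the background of 18% called, and the median log2 fold change was -0.07. With the GC offset 1 of them, RORA, was still called in the clone mean, where 3171 of 20747 features were called.

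Of the 5 partners and paralogs of the activators, 3 were tested and 2 fell. RORA (ENSG00000069667, chromosome 15, 60488284 to 61229319), a receptor that activates ARNTL at the element that REV-ERBs repress, stood at 58.8, 73.3 and 69.8 CPM for clone 1 and 46.4 and 52.3 CPM for clone 2, against 82.5, 78.3 and 76.8 CPM in wild type. The 3 groups did not overlap, with clone 2 lowest and wild type highest. RORA fell 1.37-fold in the clone mean (log2 fold change -0.46 with an SE of 0.07, adjusted p = 0.000635) and 1.60-fold in clone 2 (-0.68, SE 0.09, adjusted p = 0.000250), and had -0.23 in clone 1 (adjusted p = 0.0593). In clone 1 it passed in 11 of 21 alternatives. Its values there ran from -0.43 within sample numbers 1 to 5 to -0.12 with the GC offset (adjusted p = 0.264) and -0.10 with an offset for GC and length (adjusted p = 0.156). Clone 2 was lower than clone 1 (-0.45, SE 0.09, adjusted p = 0.0164), a difference that missed the threshold without clone 1 replicate 2 (0.0623) or 3 (0.0694) or clone 2 replicate 1 (0.207). With all knockout libraries as 1 group, which puts the difference between the clones into the spread, RORA was at -0.40 (adjusted p = 0.114). The GC offset left RORA at -0.35 in the clone mean (adjusted p = 0.00155) and -0.57 in clone 2 (adjusted p = 0.000270), and within sample numbers 1 to 5 it was at -0.61 in the clone mean. The single-end pair did not show the fall: RORA was at 60.8 CPM in the knockout library and 58.0 CPM in the wild type library (log2 ratio 0.07, interval -0.01 to 0.15).

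ARNTL2, the paralog of ARNTL that can also pair with CLOCK, had 26.0 to 28.6 CPM for clone 1 and 27.9 and 28.2 CPM for clone 2, against 30.7 to 34.2 CPM in wild type. No knockout library reached the wild type range, a separation that 25.3% of all features had in one direction or the other. ARNTL2 fell by 0.23 on the log2 scale (SE 0.06, edgeR adjusted p = 0.0114), or by 0.12 with the GC offset (adjusted p = 0.196). Its call was lost without wild type replicate 2 (adjusted p = 0.0642). RORB, a receptor related to RORA, had at most 7 counts in any library and was not tested.

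Among 15 kinases and ubiquitin enzymes that set the lifetime of PER and CRY, 14 were tested, of which 2 rose and 2 fell. USP2, a deubiquitinase of clock proteins, had 8.85 to 10.0 CPM for clone 1 and 9.03 and 10.4 CPM for clone 2, against 6.45 to 7.79 CPM in wild type (log2 fold change 0.39 with an SE of 0.10, adjusted p = 0.0134). CSNK1D, the casein kinase that phosphorylates PER, rose by 0.17 (SE 0.05, adjusted p = 0.0215). PRKAA2, a catalytic subunit of AMP kinase, which marks CRY1 for degradation, fell by 0.25 (SE 0.06, adjusted p = 0.0148). By clone, PRKAA2 was at -0.36 in clone 1 (edgeR adjusted p = 0.00341) and -0.13 in clone 2 (0.347). The difference between the clones did not pass the test (0.233). BTRC, the ubiquitin ligase subunit that recognises phosphorylated PER, fell by 0.19 (SE 0.06, adjusted p = 0.0455). With the GC offset these 4 calls in the clone mean were lost. USP2 came to 0.27 (adjusted p = 0.0607), CSNK1D to 0.03, PRKAA2 to -0.06 and BTRC to -0.16 (adjusted p = 0.0637). In clone 1 PRKAA2 stayed called with this offset (-0.17, edgeR adjusted p = 0.0362), and in clone 2 it came to 0.05. The sample-number term also ended the calls of BTRC (-0.14, adjusted p = 0.181) and CSNK1D (0.15, adjusted p = 0.0575). Leaving out 1 library ended each of the 4. For USP2 these were clone 2 replicate 1 and wild type replicate 2 (adjusted p 0.0555 and 0.0917), and for PRKAA2 clone 2 replicate 1 and wild type replicate 1 (0.0626 and 0.0675). For CSNK1D they were either clone 2 replicate and wild type replicates 1 and 2 (0.0802 to 0.155). For BTRC they were clone 1 replicate 3, either clone 2 replicate and wild type replicates 1 and 2 (0.0527 to 0.208).

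Of 13 cofactors 1 fell: SIRT1, a deacetylase of clock proteins, had 52.8 to 56.4 CPM for clone 1 and 53.7 and 56.1 CPM for clone 2, against 61.8 to 63.6 CPM in wild type (log2 fold change -0.21 with an SE of 0.05, adjusted p = 0.00830; -0.05 with the GC offset). Of the 2 clock-controlled enzymes, WEE1, the mitotic kinase gene driven by E-boxes in mouse liver, fell by 0.21 (SE 0.05, adjusted p = 0.0106; -0.10 and adjusted p = 0.121 with the GC offset; adjusted p = 0.0558 without clone 2 replicate 1, and 0.0640 and 0.0517 without wild type replicates 1 and 2), and NAMPT was at -0.08 (adjusted p = 0.262). None of 7 output and feedback factors (TEF, HLF, NFIL3, BHLHE40, BHLHE41, CIART and KLF10) was called by edgeR in any of the 4 contrasts, and DESeq2 called 0 in each. At an unadjusted p below 0.05 there were 0 in the clone mean, 0 in clone 1, 1 in clone 2 (TEF, a D-box activator like DBP, at -0.31, edgeR adjusted p = 0.127) and 2 between the clones. In the clone mean the smallest p in that list belonged to BHLHE41, an E-box repressor, at 0.36 (SE 0.23, adjusted p = 0.318) on at most 80 counts per library. Unlike RORA, the other listed genes called in the clone mean had single-end log2 ratios of the same sign as there. These were ARNTL2 -0.18, BTRC -0.16, PRKAA2 -0.13, SIRT1 -0.13, WEE1 -0.05, CSNK1D 0.07 and USP2 0.29. The interval for counting error spanned 0 for WEE1 and not for the others.

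**Figure D4:**
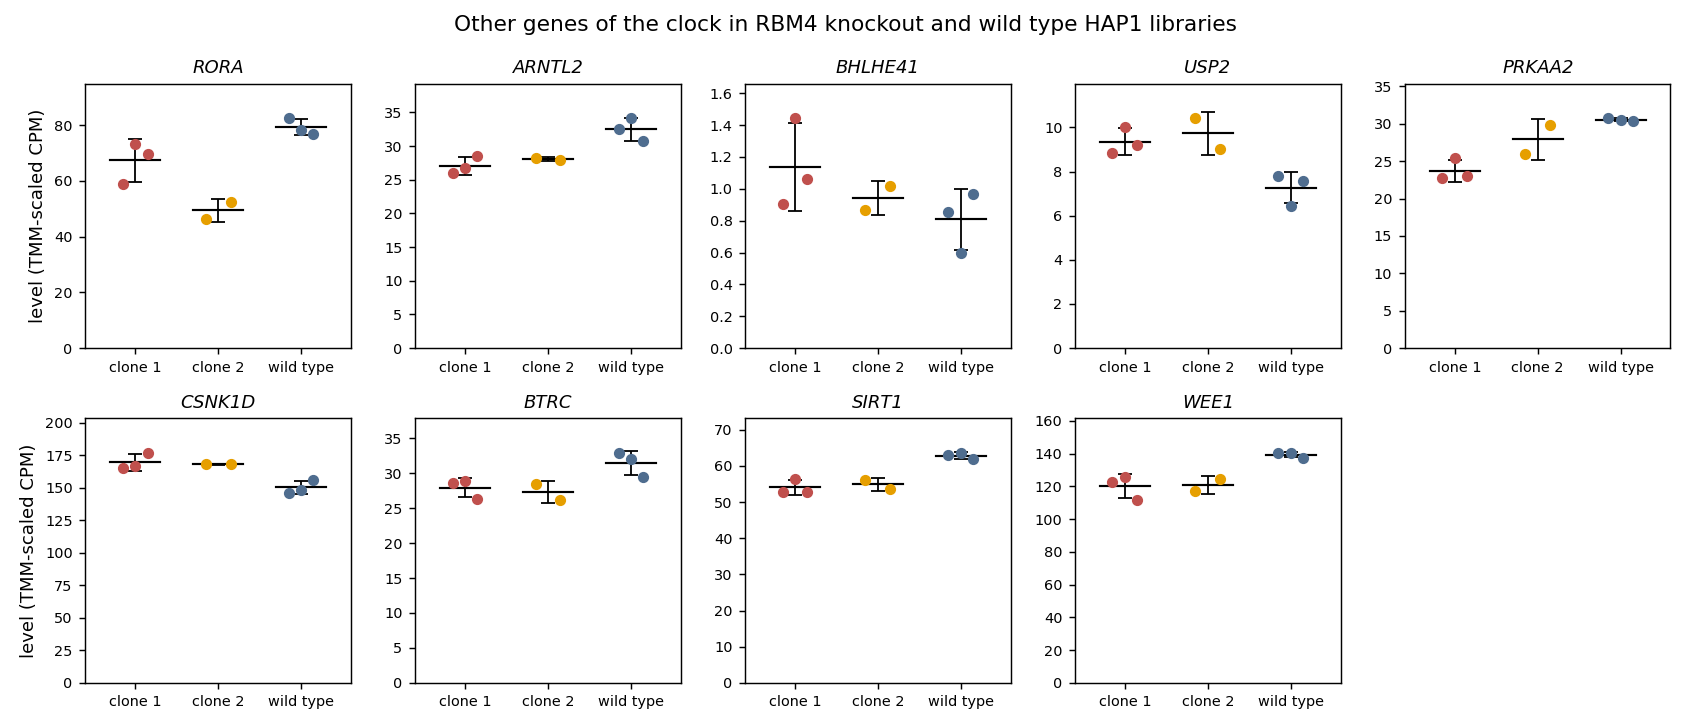
TMM-scaled CPM (y axis, from 0) of the other clock genes named by rule, in clone 1, clone 2 and wild type; points are libraries, horizontal lines are group means and bars are 1 SD. RORA is lowest in clone 2 (46.4 and 52.3 CPM) and highest in wild type (76.8 to 82.5 CPM), while BHLHE41 overlaps between groups.

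NR1D1, the member called in the clone mean, was set beside 13433 other genes whose mean log2 CPM was 1 or more. The genes whose log2 CPM followed it most closely over the 8 paired-end libraries were NFKBIA (Pearson r 0.961), TMEM191A (0.958) and PTH1R (0.953). These were picked as the highest of many, and the libraries share their groups and GC trends. NR1D1 was itself called between these groups, so the fold changes and p-values of genes picked to follow it are description only. NFKBIA, the inhibitor of NF-kappa-B, averaged 33.5 CPM in clone 1 and 37.0 CPM in clone 2, against 24.8 CPM in wild type (log2 fold change 0.50, adjusted p = 0.000163). PTH1R, the parathyroid hormone receptor gene, averaged 3.68 CPM in clone 1 and 5.25 CPM in clone 2, against 2.23 CPM in wild type (log2 fold change 0.98, adjusted p = 0.000314).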

How the data were processed

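Messenger RNA was sequenced in 10 libraries made with a stranded kit, per the labels' protocols. The authors deposited read counts for each gene and repeat subfamily, which are whole numbers and not normalized; STAR 2.5.2a and GRCh38 are named in the submitters' processing notes, and no source used here states whether counting was strand-specific. From these counts, edgeR 4.0.16 (R 4.3.3; filterByExpr, TMM factors, robust quasi-likelihood F test, 1 mean per group, 8 paired-end libraries) tested 20747 features, of which 19683 are genes, with Benjamini-Hochberg adjustment over all of them. The mean of the clones (clone mean), clone 1, clone 2 and the difference between clones were the contrasts. SEs were taken as the absolute log2 fold change over the square root of F, and intervals are at 95%. Exon lengths, overlaps and GC content came from GENCODE 29. The single-end pair was described as values, with intervals for counting error only. The code was tested on simulated counts.

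The members and the lists of other clock genes were chosen with earlier results of these data known. Named genes were the members, RBM4, genes sharing exons with a member, up to 4 called genes per list (the smallest p where none was called), and the 3 genes most like the called member. Alternatives covered the scaling, DESeq2 1.42.0, the filter, the grouping, GC content and length, sample numbers, the replicate block and each library left out.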

Additional observations from a re-analysis of the deposited data

Results flagged for a closer look

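RORA, the ROR receptor gene that activates ARNTL, was set apart because its response differed between the knockout clones in a direct test. It was lower in clone 2 than in clone 1 by -0.45 on the log2 scale (46.4 and 52.3 CPM in clone 2, against 58.8, 73.3 and 69.8 CPM in clone 1; edgeR adjusted p = 0.0164). The difference kept its sign in all 21 alternatives and passed the test in 17. It missed the threshold without clone 1 replicate 2 (edgeR adjusted p = 0.0623) or replicate 3 (0.0694). It also missed it within sample numbers 1 to 5 (-0.35) and without clone 2 replicate 1 (-0.36), fits that leave a clone with 1 library. In the single-end pair the knockout library was not below the wild type library.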

How the results depend on the processing

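Deviations from the group means were correlated between libraries. The replicate numbers did not pair the clones with wild type (same-numbered libraries -0.23 to 0.05). Between the clones, same-numbered libraries correlated at 0.25 (replicate 1) and 0.20 (replicate 2), and at -0.25 and -0.20 with these numbers swapped. Clone 2 has 2 libraries, whose deviations mirror each other. With the replicate numbers as a replicate block, 0 members were called in the clone mean, 1 in clone 1 and 2 in clone 2. Of the other clock genes 6 were called in clone 2 with this block (2526 features), against 3 in the analysis reported (2236 features).

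NR1D1 being the single member called in the clone mean, that count was 0 with DESeq2, with its size factors in edgeR and with TMM factors from genes only. It was also 0 with no filter on low counts and with all knockout libraries as 1 group. The GC, the GC and length, and the replicate block with GC correction gave 0 as well. With the sample-number term it was 3, where 4086 of 20747 features were called. That contrast rests on the 1 first-block library of each clone, since the second block holds no wild type library. In clone 1, 1 member was called with TMM factors from genes only, a mean log2 CPM of at least 1, either replicate block or the GC and length correction. The sample-number term also gave 1. It was 2 with the sample-number term and GC correction together, an analysis added after seeing the data. All features called in these settings numbered 2846 to 3912. In clone 2, 1 was called with upper-quartile factors or any GC correction (2083 to 2649 features). Between the clones, 1 was called with GC and length correction (577 features) or with the added analysis (792 features). In both it was ARNTL, lower in clone 2 by 0.37 (edgeR adjusted p = 0.0478 and 0.0309).

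The count of other clock genes called in the clone mean was 8 in the analysis reported (3725 features). It was 1 with GC correction (3171 features), and 2 with GC and length (3582 features) or with the block and GC (3181 features). The added analysis gave 4 (3329 features). In clone 1 it was 6 in the analysis reported, beside 16% of all features. There it was 2, 2 and 1 with GC correction, GC and length, and the block with GC (2779, 3189 and 2846 features). In clone 2 it was 3 in the analysis reported (10.8% of all features) and 5 with the sample-number term (3064 features). Between the clones it was 1 in the analysis reported and 2 in the added analysis. All features called between the clones numbered 688 without a filter, 273 with the stricter one and 792 in the added analysis (434 in the analysis reported).

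Leaving out each library in turn gave 0 to 1 members and 3 to 10 other clock genes in the clone mean (1847 to 4251 features), 0 to 1 and 1 to 7 in clone 1 (1605 to 3229 features), 0 to 2 and 1 to 6 in clone 2 (1033 to 2747 features), and 0 and 0 to 1 between the clones (224 to 418 features). The 1 member in the clone mean was not NR1D1 but a lower one. It was ARNTL without clone 1 replicate 1 (-0.24, edgeR adjusted p = 0.0493) and NR1D2 without clone 1 replicate 2 (-0.18, 0.0360). The lowest feature counts against wild type came without wild type replicate 1 (clone mean, clone 1) and clone 2 replicate 1 (clone 2).

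Signs turned in small values. In the clone mean PER1 came to -0.12 with GC correction, -0.12 with the block and GC, -0.13 with GC and length, -0.17 in the added analysis (adjusted p = 0.0408) and -0.0062 without clone 1 replicate 3. PER2 came to 0.054 without clone 2 replicate 1. In the same order of GC settings, CRY1 came to 0.055, 0.060, 0.057 and 0.049, and CRY2 to -0.028, -0.049, -0.026 and -0.020. CLOCK was 0.0013 with the block and GC. In the added analysis CSNK1D came to -0.0026 and SIRT1 to 0.0049. In clone 1 NR1D2 came to 0.066 with GC correction, 0.066 with the block and GC, 0.065 with GC and length and 0.033 in the added analysis, and ARNTL to 0.0075, 0.0075, 0.0069 and 0.029, to 0.0063 with the sample-number term, 0.097 within numbers 1 to 5 and, on leaving out single libraries, between -0.083 and 0.017 (0.0028 without clone 1 replicate 2, 0.017 without replicate 3). For values whose main size is near 0 the cause was not tested.

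The call of RORA in the clone mean was kept in 21 of 22 alternatives and lost with all knockout libraries as 1 group (-0.40, adjusted p = 0.114), where the difference between the clones enters the spread. Among the other genes called there, wild type replicate 2 ended the calls of ARNTL2 (0.0642), USP2 (0.0917), CSNK1D (0.143), BTRC (0.138) and WEE1 (0.0517) when left out, wild type replicate 1 those of PRKAA2 (0.0675), CSNK1D (0.155), BTRC (0.208) and WEE1 (0.0640), and clone 2 replicate 1 those of USP2 (0.0555), PRKAA2 (0.0626), CSNK1D (0.0808), BTRC (0.0527) and WEE1 (0.0558). Clone 2 replicate 2 also ended those of CSNK1D (0.0802) and BTRC (0.125), and clone 1 replicate 3 that of BTRC (0.0619). SIRT1 kept its call without any 1 library. The call of BTRC was also lost with DESeq2 (0.0646), upper-quartile factors (0.0677), no filter on low counts (0.0582) and the sample-number term (0.181). Within numbers 1 to 5 alone its log2 fold change was -0.15.

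NR1D1, DBP and ARNTL have the fewest counts of the members; the effect of depth on the calls was not measured. Clone 2 rests on 2 libraries.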
